A study of Mus musculus with 6 samples.

Results

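The genes described here are 7 that keep T cells at rest and circulating through lymph nodes: the transcription factor genes Foxo1, Foxo3, Klf2 and Klf3, the sphingosine-1-phosphate receptor gene S1pr1, the chemokine receptor gene Ccr7 and the interleukin-7 receptor gene Il7r. They were taken by symbol from the deposited table, and all 7 had a row among its 14868 genes. All are protein-coding, and each is placed on GRCm38 by GENCODE M21: Foxo1 at chr3:52268336-52353221, Foxo3 at chr10:42181841-42276755, Klf2 at chr8:72319033-72321656, Klf3 at chr5:64803388-64832901, S1pr1 at chr3:115710433-115715072, Ccr7 at chr11:99144196-99155077 and Il7r at chr15:9505788-9530176. The question put to them was whether T helper 2 (Th2) cells without Ikzf4 (it encodes Eos, an Ikaros-family factor) look less activated than wild-type (WT) cells.

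Total RNA was sequenced from 3 WT and 3 Ikzf4-/- samples on a C57BL/6J background. Both groups began as naïve CD4+ T cells, grown for 72 h with interleukin-4 at 10 ng/mL and an antibody to interferon gamma at 10 µg/mL. In both, the plates carried anti-CD3 at 5 µg/mL and anti-CD28 at 2 µg/mL, so every library comes from stimulated cells and none from resting ones. The labels give neither the age or sex of the mice nor how the Ikzf4 allele was made, and nothing in them says that the replicates were separate cultures or animals, so p-values measure only the spread between these libraries, which may be technical.

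In a resting T cell, FOXO factors sit in the nucleus and drive Klf2, Il7r and Ccr7. KLF2 in turn drives S1pr1, whose receptor lets the cell leave the lymph node for the blood, while CCR7 brings it in. Antigen receptor signalling through PI3K and AKT moves FOXO proteins out of the nucleus, and CD69, made soon after stimulation, pulls S1PR1 off the cell surface. A T cell at rest is therefore known for high Klf2, S1pr1 and Il7r, and an activated one for low levels of these genes.

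The related factor genes Klf2 and Klf3 had unlike values: Klf2 was lower in every Ikzf4-/- library, as were 12.2% of all genes, and Klf3 was level between the genotypes. Neither passed the threshold given below, and a difference between them was not tested. S1pr1 and Il7r were also lower in every Ikzf4-/- library, and Ccr7 was also level. For the contrast between related genes, the promoter sequences of Klf2 and Klf3 are shown. Each runs 5′ to 3′ on the plus strand (RefSeq promoter table, GRCm38.p6) and ends at the base before the GENCODE M21 transcript start, 29 bases before the RefSeq start for Klf2 and 133 before it for Klf3. Capitals mark matches to the MEF2 site (CTA and TAG with any 4 bases between; MEF2 factors are known activators of Klf2) and to CACCC, the box that KLF proteins bind, here read on the other strand as GGGTG.
Klf2, chr8:72318812-72319032: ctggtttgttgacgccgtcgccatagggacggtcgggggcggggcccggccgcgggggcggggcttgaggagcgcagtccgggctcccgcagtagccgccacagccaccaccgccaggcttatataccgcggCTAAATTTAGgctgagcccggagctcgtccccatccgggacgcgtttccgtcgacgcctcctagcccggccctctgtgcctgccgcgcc
Klf3, chr5:64803271-64803387: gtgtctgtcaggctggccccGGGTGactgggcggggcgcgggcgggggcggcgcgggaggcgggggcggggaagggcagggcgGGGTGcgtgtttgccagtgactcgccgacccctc

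The RefSeq table held promoters of 5 of the 7 genes, and S1pr1 and Ccr7 had no entry. In the 250 bases before the RefSeq start, searched on both strands, Klf2 had 1 MEF2 match, at 118 to 109 bases before the start, where 3.20% of 32851 promoters had at least 1. Klf3 had 5 CACCC matches, 2 of them in the stretch shown, and Klf2 had 1, after the stretch shown, in a background where 52.0% of promoters had one. None of the 5 promoters held TGTTTAC, the forkhead core that FOXO proteins bind, which was in 3.17% of promoters, or TGGGAA, the Ikaros-family core, which was in 21.6%. The motifs did not overlap each other in these promoters, and a match is a description of letters, not of binding.

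The libraries matched their labels. Ikzf4 was at a normalized read count of 483 to 756 in the WT and 10.5 to 38.2 in the Ikzf4-/- libraries. Library totals of normalized reads ran from 36104061 to 37374946. The T cell genes Cd3d, Cd3e, Cd3g, Cd4, Cd28, Lck and Cd5 were all present, with a summed level of 95677 to 98834 in WT and 98654 to 101753 in Ikzf4-/- libraries. Markers of other cells were low: the 2 of 6 B cell markers with a row summed to 51.1 to 83.6 in WT and 58.6 to 90.4 in Ikzf4-/- libraries, the 1 of 6 myeloid markers (Itgax) lay at 6.39 to 13.5 and 6.03 to 13.6, the 2 CD8 genes summed to 236 to 423 and 232 to 374, and the 1 of 4 natural killer markers (Eomes) lay at 149 to 299 and 165 to 284. Each of these ranges overlapped between genotypes. The Th2 genes Gata3, Il4, Il5 and Il13 did not, summing to 11978 to 13163 in WT and 8982 to 10313 in Ikzf4-/- libraries. Il4 (log2 ratio -0.87) and Il13 (-0.82) fell, with limma adjusted p-values of 0.0144 and 0.0450. Of the 6 fits that each left out 1 library, 5 called Il4 and 1 called Il13, with limma adjusted p-values up to 0.0571 and 0.111. With libraries scaled to equal totals Il13 did not pass (limma adjusted p = 0.0503). Il5 (-1.24, limma adjusted p = 0.0529) and Gata3 (-0.24, 0.146) did not pass, though both did in the authors' deposited table (0.00209 and 0.0386). Gata3 was at -0.15 without WT replicate 1, and passed at -0.32 without WT replicate 3 (0.0491). Of the T cell genes, Cd5 rose and the other 6 did not pass. The part of these genes in the results below was not tested. WT replicate 1 stood apart from the other WT libraries for several genes, and values without it are given where they change a call or move a printed log2 ratio by over 1.5 times.

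None of the 7 genes passed the threshold of an adjusted p under 0.05 in limma, fitted over 14864 genes, where 1.77% of all genes passed (1.2% lower and 0.572% higher in Ikzf4-/- cells). At an unadjusted p under 0.05 there were 4 of the 7 (Klf2, S1pr1, Foxo3 and Il7r), beside 18.1% of all genes. For the same 4 genes the WT and Ikzf4-/- libraries did not overlap, beside 23.1% of all genes. Klf2, S1pr1 and Il7r were the lower ones in Ikzf4-/- cells (12.2% of all genes) and Foxo3 the higher one (11%). By the authors' deposited adjusted p, 2 of the 7 passed, Klf2 and S1pr1, both lower, beside 6.34% of the genes with an adjusted p there. The median log2 ratio was -0.14 over the 7 genes and 0.00 over all genes. In RNA of whole cultures, fewer cells of a type and less RNA per cell cannot be told apart.

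**Figure D1:**
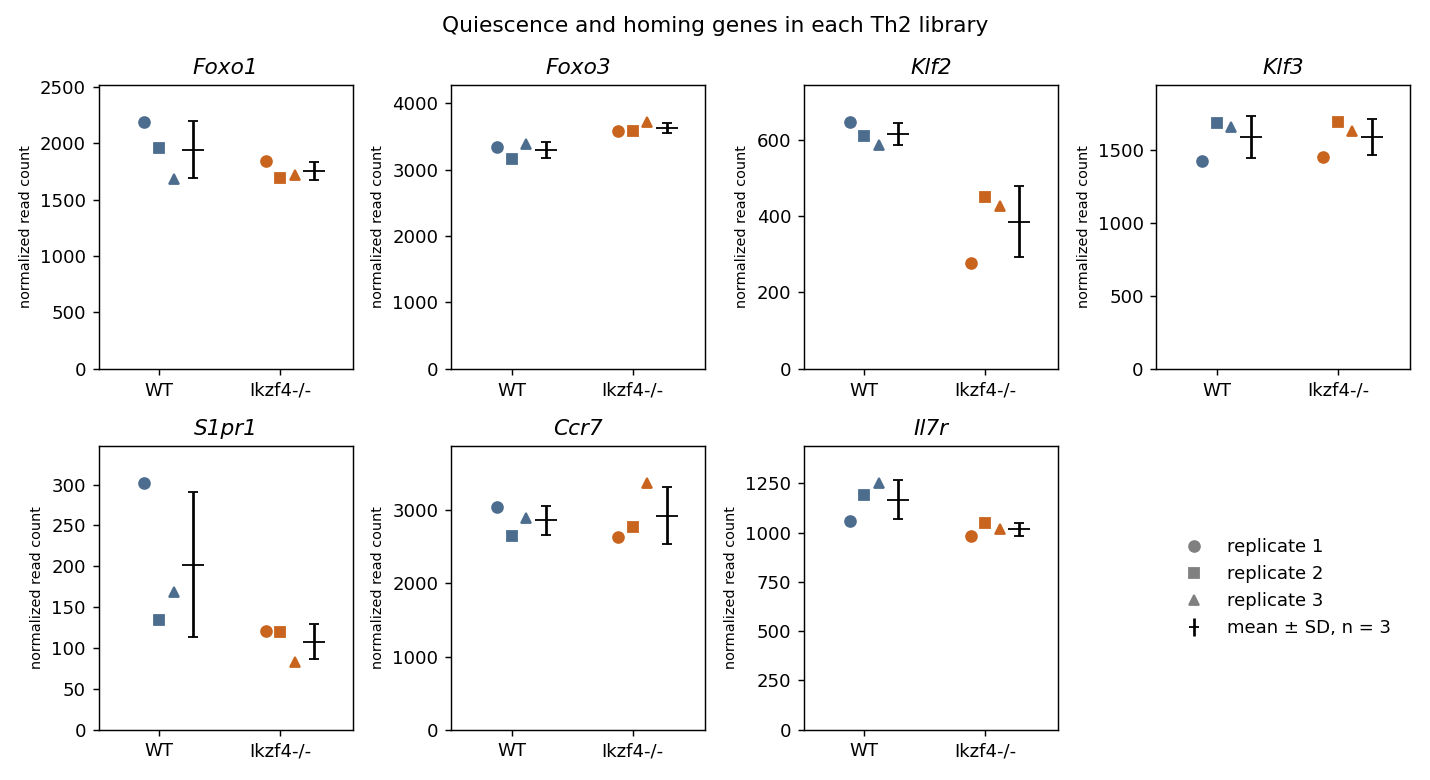
Normalized read count (y axis, from 0) of the 7 genes in each WT and Ikzf4-/- library, with a symbol shape for each replicate number and the mean ± SD (n = 3) in black. Klf2 was 587 to 646 in WT and 278 to 449 in Ikzf4-/- libraries, while Klf3 and Ccr7 overlapped between genotypes.

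Klf2 encodes the zinc finger factor that drives S1pr1 and holds T cells in a resting state. In the order of the replicate numbers, used for every gene below, its normalized read count was 646, 610 and 587 in WT cells against 278, 449 and 427 in Ikzf4-/- cells. The WT libraries were close together, and all 3 Ikzf4-/- libraries were lower, replicate 1 the most. The means were 614 ± 29.8 and 385 ± 92.8 (SD, n = 3 each), a log2 ratio (Ikzf4-/- over WT, of value + 1) of -0.70 with a standard error (SE) of 0.16 and a 95% interval of -1.05 to -0.36. The limma adjusted p was 0.0526, just above the threshold. The authors' deposited table gave -0.68 and an adjusted p of 0.000480, which was under it. Leaving out Ikzf4-/- replicate 1 gave -0.49 (limma adjusted p = 0.0704), the smallest change over the 6 fits that each left out 1 library, and the largest was -0.83. No such fit put Klf2 past the threshold, with adjusted p-values from 0.0577 to 0.114.

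Klf3 encodes a repressor of the same family that binds the same kind of site. It was at 1425, 1682 and 1655 in the WT and 1454, 1691 and 1627 in the Ikzf4-/- libraries. The libraries interleaved, and replicate 1 was the lowest of its genotype in both. The means were 1587 ± 141 and 1591 ± 123 (SD, n = 3 each). The log2 ratio was 0.00 with a 95% interval of -0.17 to 0.18 (limma adjusted p = 0.987). Its sign turned when WT replicate 1 (-0.07), Ikzf4-/- replicate 2 (-0.04) or Ikzf4-/- replicate 3 (-0.01) was left out.

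S1pr1, the egress receptor, had the lowest level per length of the 7. Its values were 302, 135 and 169 in the WT and 121, 119 and 83.4 in the Ikzf4-/- libraries. WT replicate 1 was far above the other WT libraries, and the Ikzf4-/- libraries were all below the lowest WT one. The means were 202 ± 88.6 and 108 ± 21.3 (SD, n = 3 each), and the SD was 43.8% of the mean in WT. Counting alone would give an error of 10.95% at the lowest value. The log2 ratio was -0.83 with an SE of 0.27 and a 95% interval of -1.43 to -0.23 (limma adjusted p = 0.142). The authors' deposited table gave -0.90 and an adjusted p of 0.0176. Without WT replicate 1 the log2 ratio was -0.50 (limma adjusted p = 0.32), and without WT replicate 2 it was -1.08 (0.102).

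Foxo1 and Foxo3 encode the forkhead factors at the head of the axis, and their values leaned in opposite directions. Foxo1, the main FOXO gene behind Il7r in naïve T cells, was at 2188, 1962 and 1680 in the WT and 1841, 1692 and 1719 in the Ikzf4-/- libraries. The genotypes overlapped, since WT replicate 3 was the lowest of the 6. Its log2 ratio was -0.14 with a 95% interval of -0.34 to 0.05 (limma adjusted p = 0.430), and it was -0.05 (0.822) without WT replicate 1 and -0.24 (0.0939) without WT replicate 3. Foxo3 was at 3332, 3159 and 3383 in the WT and 3586, 3583 and 3716 in the Ikzf4-/- libraries. All 3 Ikzf4-/- libraries were above every WT library, by a small margin. The means were 3291 ± 117 and 3628 ± 76.1 (SD, n = 3 each), a log2 ratio of 0.14 with an SE of 0.05 and a 95% interval of 0.03 to 0.25 (limma adjusted p = 0.160, and 0.169 in the authors' deposited table). Foxo3, at chr10:42181841-42276755, lies on the same chromosome as Ikzf4, which is at chr10:128630843-128645991, and a part of position was not tested.

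Il7r encodes the chain that lets T cells take survival signals from interleukin-7. It was at 1057, 1191 and 1253 in the WT and 983, 1048 and 1018 in the Ikzf4-/- libraries. The genotypes did not overlap, but WT replicate 1 lay just above Ikzf4-/- replicate 2. The means were 1167 ± 100.045 and 1016 ± 32.7 (SD, n = 3 each), a log2 ratio of -0.20 with an SE of 0.08 and a 95% interval of -0.36 to -0.03 (limma adjusted p = 0.201, and 0.192 in the authors' deposited table).

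Ccr7, which guides T cells into lymph nodes, was at 3045, 2652 and 2888 in the WT and 2632, 2776 and 3378 in the Ikzf4-/- libraries. The highest and the lowest of the 6 values were both from Ikzf4-/- cells. Its log2 ratio was 0.03 with a 95% interval of -0.17 to 0.22 (limma adjusted p = 0.907). Without WT replicate 1 the log2 ratio was 0.07 (limma adjusted p = 0.787). The sign turned without WT replicate 2 (-0.03) or Ikzf4-/- replicate 3 (-0.08).

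**Figure D2:**
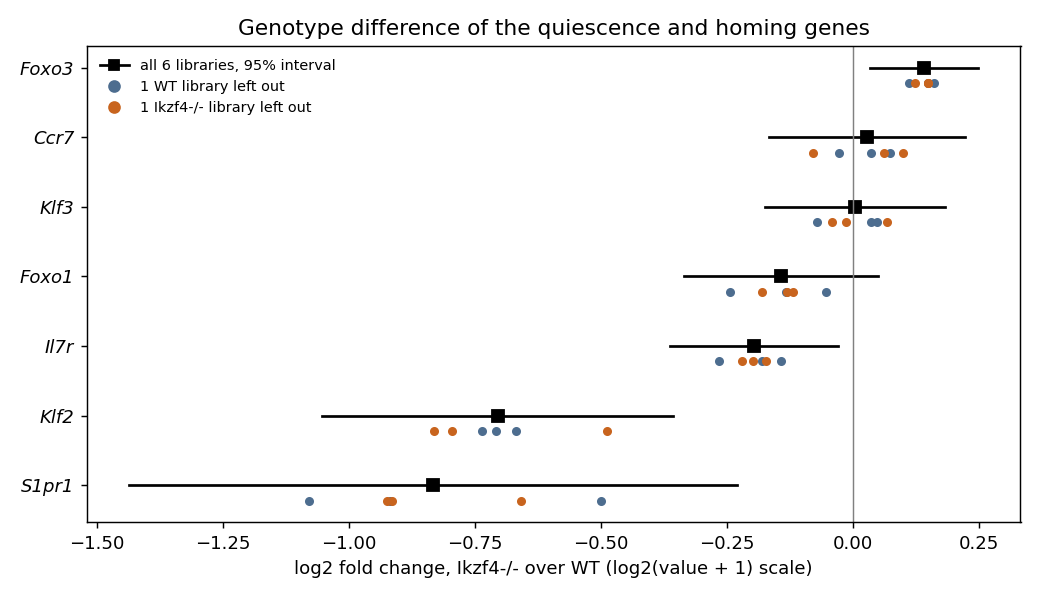
Log2 ratio of the 7 genes, Ikzf4-/- over WT, on the log2(value + 1) scale: squares and lines give the limma estimate and 95% interval on 6 libraries, small dots the fits that each left out 1 library. S1pr1 moved from -1.08 to -0.50 and Klf2 from -0.83 to -0.49 across these fits, and the dots of Klf3 and Ccr7 lie on both sides of 0.

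Levels were compared between genes only per length, as normalized read count per kb of annotated exon. Ccr7 was the highest in both genotypes, at 1447 ± 100.03 in WT and 1481 ± 199.9 in Ikzf4-/- libraries (SD, n = 3 each). In WT cells the order then ran Foxo3 (435 ± 15.5), Klf2 (333 ± 16.1), Il7r (250.2 ± 21.5), Foxo1 (224 ± 29.4), Klf3 (141 ± 12.5) and S1pr1 (66.3 ± 29.1). Of neighbours in this order, Il7r and Foxo1 overlapped between libraries and the others did not. In Ikzf4-/- cells Klf2, at 208 ± 50.3, came after Il7r (218 ± 7.02) and before Foxo1 (202 ± 9.17), and its libraries overlapped with those of both. Foxo3 (479 ± 10.0), Klf3 (141 ± 10.9) and S1pr1 (35.4 ± 6.98) kept their places. Thus Klf2 was clear of Il7r in WT but not in Ikzf4-/- cells, and S1pr1 was the lowest in both.

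**Figure D3:**
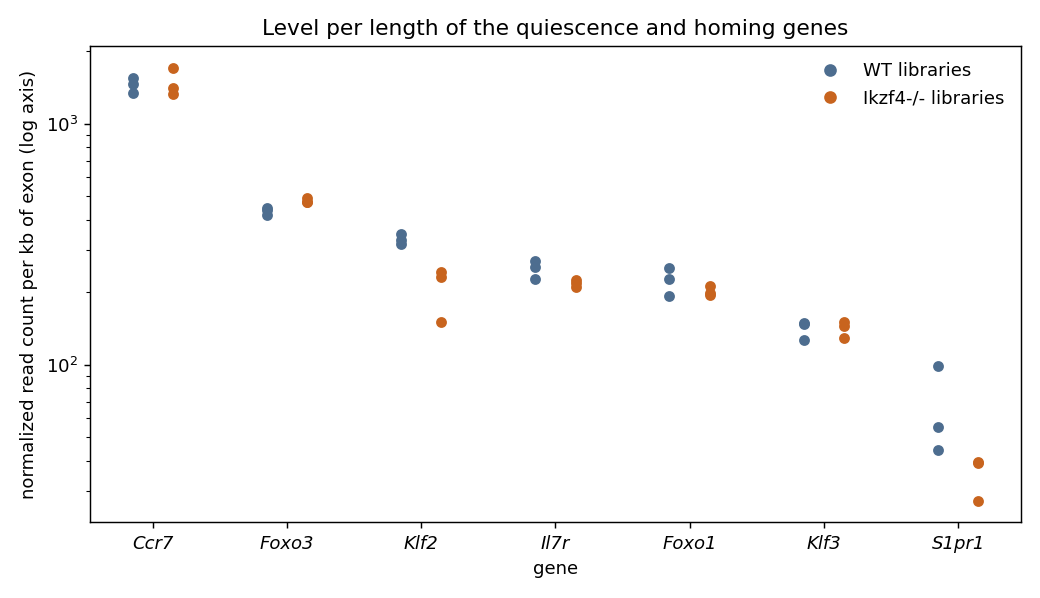
Normalized read count per kb of exon (log axis) of each gene in the 3 WT and 3 Ikzf4-/- libraries, ordered by WT mean. The genes span from 1447 for Ccr7 to 66.3 for S1pr1 in WT means, and the Klf2 points of Ikzf4-/- cells lie both above and below those of Il7r and Foxo1.

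Of 19 tested genes of lymph node homing and egress other than the 7, S1pr4 fell and Cd69 rose, and the other 17 did not pass the threshold. Thus 10.5% were called, beside 1.77% of all genes. At an unadjusted p under 0.05 there were 9, beside 18.1% of all genes. This list, like the others, was chosen with earlier results of these data known, so its share is a description only. The median log2 ratio of the list was -0.18, beside 0.00 over all genes. S1pr4, a second sphingosine-1-phosphate receptor of lymphocytes, was at 2073, 2014 and 2164 in the WT and 1456, 1697 and 1638 in the Ikzf4-/- libraries, with no overlap. Its log2 ratio was -0.39 (SE 0.07, limma adjusted p = 0.0258). Cd69, whose protein binds S1PR1 and removes it from the surface, was at 1183, 1123 and 1171 in the WT and 1624, 1441 and 1552 in the Ikzf4-/- libraries. Every Ikzf4-/- library was above every WT library, a log2 ratio of 0.41 (SE 0.06, limma adjusted p = 0.0213). Both genes were called in 3 of the 6 fits that left out 1 library, with adjusted p-values up to 0.0878 for S1pr4 and 0.0875 for Cd69, each without Ikzf4-/- replicate 3.

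Cxcr4, the receptor for the chemokine CXCL12, was at 715, 491 and 403 in the WT and 228, 378 and 235 in the Ikzf4-/- libraries. It did not overlap between genotypes, and its log2 ratio was -0.93 (SE 0.22, limma adjusted p = 0.0634, and 0.0780 in the authors' deposited table). Without WT replicate 1 it was -0.70 (0.0975), and it passed without WT replicate 3 (0.0284) or Ikzf4-/- replicate 2 (0.0418). By the authors' deposited adjusted p, 6 genes of the list passed, 5 of them lower, beside 6.34% of the genes with an adjusted p there. Leaving out 1 library gave 0 called genes of the list without WT replicate 2, Ikzf4-/- replicate 1 or Ikzf4-/- replicate 3, and 6 without WT replicate 3.

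Of 17 tested FOXO target genes other than the 7, limma called 0, beside 1.77% of all genes. At an unadjusted p under 0.05 there were 3, beside 18.1% of all genes. The authors' deposited table called 3, 2 of those higher, beside 6.34% of the genes with an adjusted p there. Over the 17 genes the median log2 ratio was 0.00. Bcl2l11, the gene of the death factor BIM, had 0.29 (limma adjusted p = 0.121, and 0.0304 in the authors' deposited table), and 0.18 without WT replicate 1. Upstream, of 19 genes of the PI3K and AKT route that restrains FOXO, limma called 0, with 6 at an unadjusted p under 0.05 and 3 in the authors' deposited table, and the median was 0.02. Pik3r5, a regulatory subunit of PI3K gamma, had a log2 ratio of -0.43 (limma adjusted p = 0.138), and without Ikzf4-/- replicate 2 it had -0.26 (0.295). Rictor, a core part of mTOR complex 2, which activates AKT, had 0.23 (limma adjusted p = 0.0859). In the authors' deposited table its adjusted p was 0.0477, and it was the 1 called higher there.

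The KLF family beyond Klf2 and Klf3 also had no called gene. Of 11 tested, 5 had an unadjusted p under 0.05, beside 18.1% of all genes. The authors' deposited table called 1, beside 6.34% of the genes with an adjusted p there, and the median log2 ratio was 0.03. Klf4, like Klf2 a factor of quiescent T cells, leaned the other way from Klf2, at 0.44 (limma adjusted p = 0.131, and 0.0416 in the authors' deposited table, where it was the 1 called), and at 0.26 without WT replicate 1. Klf10, a gene induced by TGF-beta, had -0.43 (limma adjusted p = 0.158), and without WT replicate 3 it was called at -0.61 (0.0278).

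Of 21 tested factors and markers of the quiet or naïve state, 2 rose, 0 fell and 19 did not pass, with a median log2 ratio of 0.09. The 2 were 9.52% of the list, beside 1.77% of all genes. At an unadjusted p under 0.05 there were 9, beside 18.1% of all genes. Foxp1, a forkhead gene known to keep T cells quiescent and to oppose FOXO1 at Il7r, was at 4386, 5326 and 4549 in the WT and 6543, 6156 and 5853 in the Ikzf4-/- libraries (limma adjusted p = 0.0319, log2 ratio 0.38 ± 0.07 SE). Dapl1, a marker gene of naïve T cells, was at 1313, 1152 and 1083 in the WT and 1918, 1533 and 1635 in the Ikzf4-/- libraries (limma adjusted p = 0.0294, log2 ratio 0.52 ± 0.09 SE). Neither gene overlapped between genotypes, and each was called in 3 of the 6 fits that left out 1 library. By fitted value 15 genes of the list were higher and 6 lower, beside 7621 higher and 7243 lower of all genes. The 2 uncalled genes with the largest changes, both high in resting cells, were among the lower ones. Igfbp4, another marker of naïve T cells, was at 2366, 728 and 612 in the WT and 478, 458 and 381 in the Ikzf4-/- libraries (log2 ratio -1.22, limma adjusted p = 0.130). Without WT replicate 1 its log2 ratio was -0.61 and it was called (0.0226), as it was without WT replicate 3 (0.0436). Tsc22d3, the glucocorticoid-induced gene of GILZ and a known FOXO target, had -0.67 (limma adjusted p = 0.0876, and 0.0142 in the authors' deposited table). The list had 0 called genes without Ikzf4-/- replicate 1 or 3, 1 without Ikzf4-/- replicate 2 and 4 without WT replicate 3.

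Of 12 tested genes of interleukin-7 receptor signalling, 2 fell, 0 rose and 10 did not pass, with a median log2 ratio of -0.09. The 2 were 16.7% of the list, beside 1.77% of all genes. At an unadjusted p under 0.05 there were 4, beside 18.1% of all genes. Bcl2, the survival gene that IL-7 maintains, was at 6001, 5066 and 5666 in the WT and 3598, 4293 and 4408 in the Ikzf4-/- libraries (limma adjusted p = 0.0303, log2 ratio -0.45 ± 0.08 SE). Socs1, a feedback inhibitor of cytokine receptors, was at 6006, 6216 and 6407 in the WT and 4328, 4680 and 5442 in the Ikzf4-/- libraries (limma adjusted p = 0.0375, log2 ratio -0.37 ± 0.07 SE). Jak3, the kinase bound to the common gamma chain (-0.33, limma adjusted p = 0.0588), and Gfi1, a repressor of Il7r (-0.48, 0.0536), were lower in every Ikzf4-/- library without passing. In the authors' deposited table Jak3 passed (0.000849) and Gfi1 did not (0.0522), while without WT replicate 3 both passed (limma adjusted p = 0.0273 and 0.0177), as did Gfi1 without WT replicate 1 (0.0455). These receptor parts also serve interleukin-2 and interleukin-4. Leaving out Ikzf4-/- replicate 1 or 2 left 0 called genes of the list, and leaving out WT replicate 2 or Ikzf4-/- replicate 3 left 1.

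**Figure D4:**
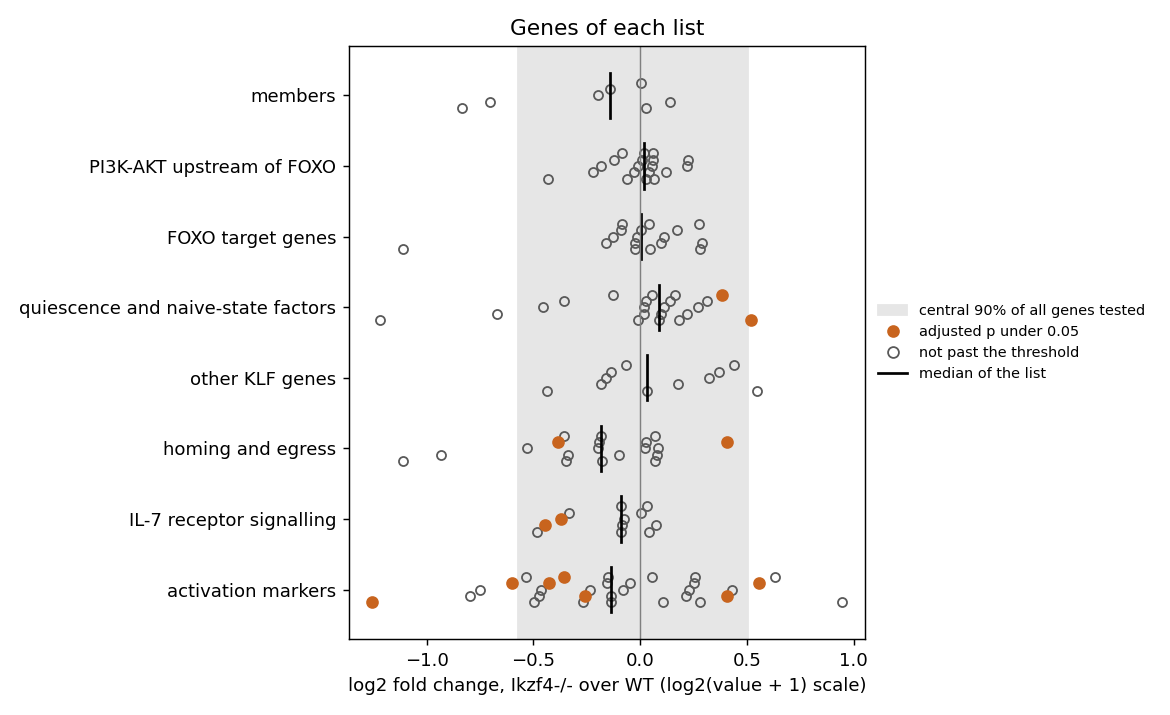
Log2 ratio (x axis, Ikzf4-/- over WT, log2(value + 1) scale) of each gene of the 7 members and of 7 related lists, filled where the limma adjusted p was under 0.05, with each list's median as a line and the central 90% of all genes as a band. Called genes lie on both sides of 0 among homing and activation genes, and the members hold no called gene.

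Of 31 tested activation markers, 5 fell, 2 rose and 24 did not pass, and the median log2 ratio was -0.14. Beside the 1.77% of all genes called, 22.6% of this list was called, and 10 genes were called in the authors' deposited table. The list was chosen with earlier results of these data known, so its share is a description only. The 5 that fell were Batf3, an AP-1 factor of activated T cells (log2 ratio -1.25, limma adjusted p = 0.0342), Lag3, an inhibitory receptor (-0.60, 0.0355), Myc, a transcription factor gene of cell growth (-0.42, 0.0490), Ldha, the lactate-forming enzyme of glycolysis (-0.36, 0.0246, and -0.20, 0.0364 with quantile scaling), and Tnfrsf18, the gene of GITR (-0.26, 0.0306). The 2 that rose were Cd69 and Nr4a2, an orphan nuclear receptor gene induced by antigen receptor signalling, which was at 1037, 1424 and 1537 in the WT and 1850, 1993 and 1971 in the Ikzf4-/- libraries (0.56, 0.0474). Cd5, which rises with the strength of antigen receptor signalling and stood on the T cell list, rose as well (0.33, limma adjusted p = 0.0306). The other 6 genes of the T cell list did not pass. Cd5 was called in 3 of the 6 fits that left out 1 library, with limma adjusted p-values up to 0.116, without Ikzf4-/- replicate 3. Il2, made after stimulation, had the largest positive log2 ratio of the list, at 0.94, but did not pass (limma adjusted p = 0.0621). Its values were 1189, 2040 and 2798 in the WT and 3418, 3818 and 3706 in the Ikzf4-/- libraries. Without WT replicate 1 it was called, at 0.61 (0.0106), as it was without WT replicate 3, at 1.23 (0.0107). Batf, a partner of IRF4, had -0.79 (limma adjusted p = 0.0634), and without WT replicate 1 it was called at -0.52 (0.0203), as it was without WT replicate 3, at -0.92 (0.0379). The list's count was 0 without WT replicate 2, Ikzf4-/- replicate 1 or Ikzf4-/- replicate 3, 2 without Ikzf4-/- replicate 2, 12 without WT replicate 1 and 13 without WT replicate 3.

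**Figure D5:**
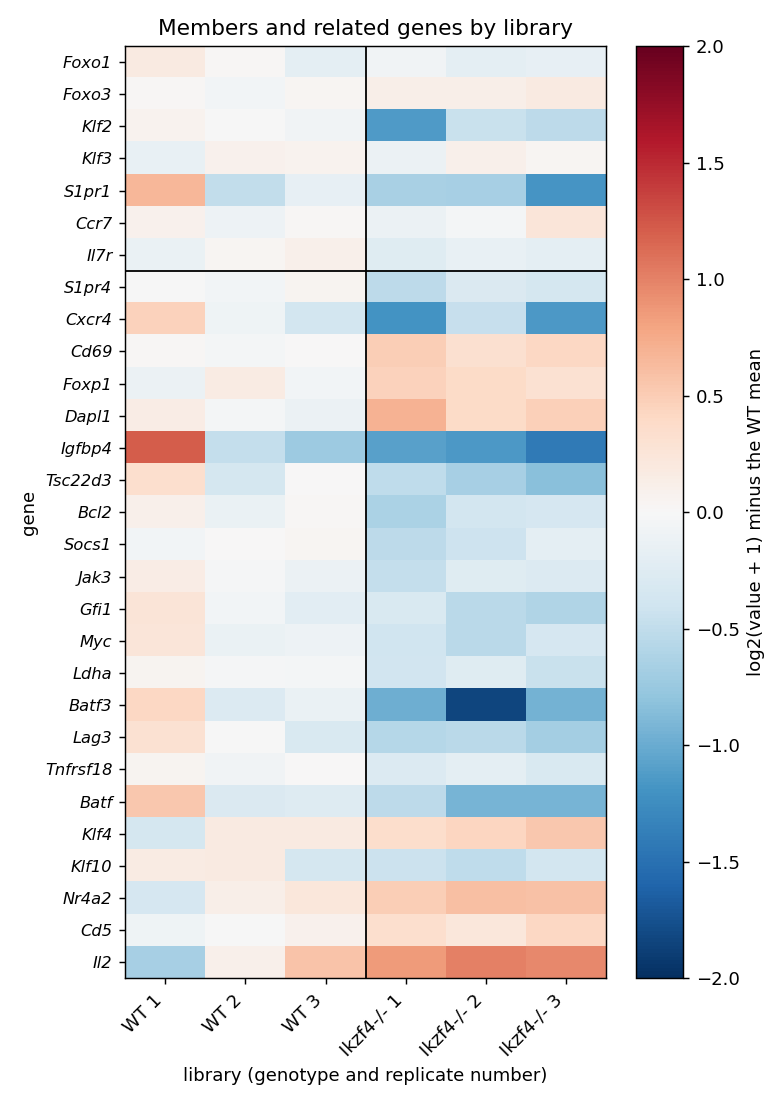
Log2(value + 1) minus the gene's WT mean (colour, blue lower and red higher) for the 7 members, above the line, and 22 genes of the related lists and the T cell list in each library. Klf2, S1pr1 and Cxcr4 are blue in the 3 Ikzf4-/- libraries where Cd69, Nr4a2, Cd5 and Il2 are red, and WT replicate 1 stands out in S1pr1 and Igfbp4.

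Set side by side, genes high in resting cells and genes high in activated cells did not each lean one way. Of the resting and homing genes named above, S1pr4 fell in Ikzf4-/- cells, and Foxp1 and Dapl1 rose. Klf2, S1pr1, Il7r, Cxcr4, Igfbp4 and Tsc22d3 had lower values without passing in limma, and Foxo3 and Klf4 had higher ones. Foxo1, Klf3 and Ccr7 had intervals that spanned 0. Of the genes of activation, Cd69 and Nr4a2 rose, and Batf3, Lag3, Myc, Ldha and Tnfrsf18 fell. Il2 had higher and Batf lower values without passing, and Cd5, of the T cell list, rose. By fitted value 12 activation markers were higher and 19 lower. Over the 128 distinct tested genes of the 7 related lists, chosen with earlier results of these data known, 12 were called, 8 lower and 4 higher. This was 9.38%, beside 1.77% of all genes. Of all 263 called genes 32.3% were higher, and with libraries scaled to equal totals 42.8% of 269 were. The count over the lists hung on single libraries: it was 0 without Ikzf4-/- replicate 1, 1 without Ikzf4-/- replicate 3, 3 without WT replicate 2, 5 without Ikzf4-/- replicate 2, 20 without WT replicate 1 and 28 without WT replicate 3. The count over all genes changed with the same libraries, from 263 to 48, 20, 75, 112, 269 and 523.

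The genes whose pattern over the 6 libraries was most like each member were found among 11593 others by the root mean square difference of log2 values, each centred on its own mean. The libraries, their depth and the genotypes are shared by all points. Nearest to Klf2 were Numbl, at 0.10, and Gm37169, also at 0.10, with log2 ratios of -0.66 (limma adjusted p = 0.156) and -0.68 (0.0615). Nearest to S1pr1 were Armcx6 (0.11) and Stom (0.13), both highest in WT replicate 1, at 521 and 1766, and lowest in Ikzf4-/- replicate 3, at 123 and 501. Their log2 ratios were -0.94 and -0.89, and without WT replicate 1 they were -0.54 and -0.58, where Stom was called (limma adjusted p = 0.0470), as it was without WT replicate 3 (0.0375). Klf2 and S1pr1 were less alike, at 0.46, with Klf2 lowest in Ikzf4-/- replicate 1 and S1pr1 in replicate 3. The 2 nearest genes of Il7r were AI467606 (0.02) and Zbtb11os1 (0.03), of Foxo3 Mccc2 (0.02) and Krit1 (0.02), and of Foxo1 Ppp1r13b (0.03) and Mnt (0.03). Those of Klf3 were 1810013L24Rik (0.02) and Gm7879 (0.03), and for Ccr7 the gene given is Eif3j2 (0.03). None of the 13 genes named here was called with all 6 libraries.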

How the data were processed

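One deposited table held a row per gene. Its 6 library columns are the authors' normalized read counts, a signal that is never negative, in which every value was within 0.1 of a whole multiple of 1 step per library. The same deposited table gave the authors' log2 fold changes, p-values and adjusted p-values. Per the submitters' processing notes, Trimmomatic 0.36, STAR 2.5.2b, DESeq2 and build GRCm38 were used. The counting tool, its use of strand and the annotation are not given in the sources used here. The steps imply 34701390 to 40604346 reads per library, which limits counting error to a few percent for all members but S1pr1.

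Values were taken as log2(value + 1), a gene was kept where it averaged 10 or more (14864, leaving out 4), and genotype was fitted with limma 3.58.1 (R 4.3.3), with moderated, trended variances and two-sided p-values adjusted by Benjamini-Hochberg over all genes. All 7 members passed the filter. "Called", "rose" and "fell" mean an adjusted p under 0.05, and intervals cover 95%. The procedure was tested on simulated data, with changes larger than those of the 7 members and a single spread setting for every gene. That test therefore cannot show how often changes of the members' size are found. Log2 ratios on this scale understate those of low genes. Coordinates and merged exon lengths come from GENCODE M21 by Ensembl identifier.

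Named were Ikzf4, the 7 members, each list's called genes and the 2 uncalled ones with the largest change and a mean of at least 50, and each member's 2 nearest genes. The members and lists were chosen with earlier results of these data known. Cd69 and 1 other gene each stood on 2 lists. Of the genes the rule gave, 2 are not reported here. List genes with no row were not analysed here. Alternatives were other scaling, filters and pseudocounts, a replicate block, leaving out each library, and the authors' calls.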

Additional observations from a re-analysis of the deposited data

How the results depend on the processing

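The direction of Klf2, S1pr1, Foxo1, Foxo3, Il7r and Ikzf4 was the same under every alternative run, and Ikzf4 was called in each. Pseudocounts of 0.1 and 10, quantile scaling, equal library totals, dropping the filter and asking for 10 in each library called 0 members, 11 to 13 list genes and 256 to 283 genes in all. Among lists, 1 count moved from 0: 1 FOXO target was called with quantile scaling and 1 with equal library totals. With equal totals 42.8% of calls were higher, against 32.3%, with a median over all genes of 0.03. For Klf2 these settings gave adjusted p-values from 0.0503 to 0.0578.

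Fits without 1 library called 0 members each, 0 to 28 list genes and 20 to 523 genes in all. By list, the counts ran from 0 to 2 (PI3K and AKT), 0 to 1 (FOXO targets), 0 to 4 (quiescence), 0 to 1 (other KLF genes), 0 to 6 (homing), 0 to 3 (IL-7 receptor) and 0 to 13 (activation). The log2 ratio ran from -0.0717 to 0.0674 for Klf3 and from -0.0797 to 0.10 for Ccr7. Of the genes nearest to these, all close to 0, the values ran from -0.0589 to 0.0830 for 1810013L24Rik, -0.119 to 0.0643 for Eif3j2 and -0.0852 to 0.0452 for Gm7879, and equal totals turned Eif3j2 to 0.0134 and Gm7879 to 0.0220.

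With the replicate number as a block, 754 genes were called, 36 list genes and 1 member, Klf2 (log2 ratio -0.70, adjusted p = 0.0259). By list the block gave 1 (PI3K and AKT), 3 (FOXO targets), 6 (quiescence), 1 (other KLF genes), 5 (homing), 4 (IL-7 receptor) and 18 (activation). Shared numbers were not read as pairs because the labels do not say that they pair cultures. Deviations of same-numbered libraries correlated at 0.145, 0.0122 and 0.142, which cannot show whether the libraries were paired. The authors' deposited table called 815 genes, 28 list genes and 2 members, Klf2 (-0.68) and S1pr1 (-0.90), and by list 3, 3, 4, 1 and 6 for the first 5 in that order. The cause of these differences was not tested.

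A count test with edgeR was planned only if the columns were raw counts, and no edgeR or DESeq2 test was run. In Ikzf4-/- replicates 1 and 3 the step was too close to 1 for the check of recovered reads. This was so although every value was within 0.1 of a whole multiple of its step. For 44 named genes, 511 of 616 values kept direction and call, 54 lost the call, 40 gained it and 11 turned sign.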
